A study of Mus musculus with 12 samples.

Results

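The genes described here are 36 markers of the classical, gastrointestinal-like state of pancreatic ductal adenocarcinoma, other than mucins and trefoil factors. They were taken by symbol from the 53715 genes measured. Of the 36, 13 stand on the classical list of Moffitt and colleagues and 12 on that of Collisson and colleagues, with Lgals4 and Tspan8 on both, and the others are gastric or intestinal epithelial genes. The set was meant to leave out transcription factors, yet it holds 3 nuclear factors, Klf4, Foxq1 and Tox3. Fam3d is carried under its older symbol Oit1 in the annotation. After a filter on low counts, 29 of the 36 could be tested.

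Total RNA was sequenced from epithelial organoids of tumours of C57/Bl6 mice whose alleles include Trp53LSLR172H/LOH and Pdx1-Cre, in which Pdx1-driven Cre switches on mutant Trp53 in pancreatic cells. The series text gives the Trp53 allele as Trp53LSLR172H/+, and the sample labels give it as lost on the other copy. Organoids of the lines mT69a and mT6 grew as epithelial cultures in Matrigel, with no host tissue. In each line, 1 Spdef knockout clone carried an SPDEF overexpression vector (SPDEF-labelled) or an empty vector (Spdef knockout), and 1 Rosa26 knockout clone with an empty vector was the control. Each of the 6 groups had 2 libraries, 12 in all. Each genotype was thus 1 clone per line, and gene loss and clone effects cannot be told apart. The labels do not say that libraries of a group came from separate cultures, so p-values measure the spread between these libraries, which may be technical.

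Pancreatic tumours of the classical state keep an epithelial program that resembles the stomach and intestine, while basal-like tumours lose it and gain squamous-type keratins. Classical markers include adhesion molecules, galectins, brush-border and mucus-layer proteins, and membrane transporters. Spdef encodes an ETS-family transcription factor that drives the maturation of mucus-secreting cells in gut and airway, and ETS factors bind DNA around a GGAA or GGAT core.

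Libraries held 9094305 to 28903850 expected counts, and the mitochondrial share of them was 12.7% to 15.5% in replicate 1 of the groups and 18.59% to 27.09% in replicate 2. The first principal component took 44.8% of the variance and separated the lines. Spdef itself had 2 and 0 counts in the mT69a SPDEF-labelled libraries, 2 and 0 in the mT69a knockouts, and 2 and 4 in the mT69a controls. The mT6 line had 1 and 0 counts in SPDEF-labelled libraries, 0 and 2 in knockouts, and 30 and 29 in controls. Mouse Spdef was therefore at the floor of 3 counts in the SPDEF-labelled libraries, and any direction given for these libraries depends on their label; the mT69a control already lay near the same floor. Epithelial markers (Epcam, Cdh1, Krt8, Krt18, Krt19 and Cldn4) summed to 2000 to 4480 TPM (a level scaled by transcript length) in a library. Fibroblast markers summed to at most 0.35 TPM, with Col3a1 and Lum at 0. Acinar markers reached 1.25 TPM, with Cpa1, Prss1 and Pnlip at 0, and endothelial markers 0.99 TPM. Enteroendocrine and tuft markers reached 1.31 TPM, with Neurod1, Ins2 and Gcg at 0. Immune markers summed to 2.13 to 14.4 TPM, nearly all of it Cd68, with Cd3e and Adgre1 at 0. The immune sum was 3.48 to 5.71 TPM in mT69a SPDEF-labelled libraries, 7.43 to 14.4 in mT69a knockouts and 4.12 to 5.2 in mT69a controls, and the part of these cells in the results below was not tested. In such bulk libraries, fewer cells of a type and less RNA per cell cannot be told apart.

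Promoter sequences are shown for the members past the threshold in one direction in both lines in a comparison with SPDEF-labelled libraries, as far as the RefSeq table holds them. Clca1 also met that rule. Each run is the 250 bases before the RefSeq start on GRCm38.p6, printed 5′ to 3′ on the gene's strand, with the ETS cores GGAA and GGAT (TTCC and ATCC on the other strand) in capitals. The windows are chr4:137707217-137707466 (plus strand) for Rap1gap, chr7:31076698-31076947 (minus) for Fxyd3, chr7:28833544-28833793 (plus) for Lgals4 and chr11:99438154-99438403 (minus) for Krt20. The Rap1gap window belongs to the start of its leading transcript, Rap1gap-202, which lies inside the gene.
Rap1gap: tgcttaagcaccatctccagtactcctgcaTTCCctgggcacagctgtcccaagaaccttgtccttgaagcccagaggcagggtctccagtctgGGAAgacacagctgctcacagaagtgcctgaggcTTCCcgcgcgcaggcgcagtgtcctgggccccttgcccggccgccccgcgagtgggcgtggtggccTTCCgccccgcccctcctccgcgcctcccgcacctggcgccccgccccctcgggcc
Fxyd3: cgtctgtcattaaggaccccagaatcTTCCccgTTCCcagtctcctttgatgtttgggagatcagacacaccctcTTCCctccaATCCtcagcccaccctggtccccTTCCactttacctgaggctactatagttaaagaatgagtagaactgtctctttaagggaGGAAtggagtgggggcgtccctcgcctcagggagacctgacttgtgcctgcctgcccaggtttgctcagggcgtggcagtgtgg
Lgals4: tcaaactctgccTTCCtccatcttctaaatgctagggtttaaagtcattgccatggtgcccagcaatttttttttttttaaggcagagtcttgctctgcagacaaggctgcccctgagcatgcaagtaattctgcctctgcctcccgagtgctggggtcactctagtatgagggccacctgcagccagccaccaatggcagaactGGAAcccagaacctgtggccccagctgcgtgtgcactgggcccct
Krt20: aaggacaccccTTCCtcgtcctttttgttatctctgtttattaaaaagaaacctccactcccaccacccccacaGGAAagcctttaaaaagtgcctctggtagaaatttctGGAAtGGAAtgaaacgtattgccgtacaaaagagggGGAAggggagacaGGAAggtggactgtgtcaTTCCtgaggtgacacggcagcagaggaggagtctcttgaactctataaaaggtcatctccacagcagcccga

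Fxyd3 had 5 GGAA cores and 1 GGAT core, Krt20 had 7 GGAA cores, Rap1gap had 4 and Lgals4 had 2, and the last 3 had no GGAT core. Over all 32851 promoters of this length, 93.4% held GGAA and 74.1% held GGAT on either strand. Of the 36 markers, 21 had a promoter in the table, and in 19 of these GGAA was present in at least 1 of their promoters, in 13 GGAT. Counted by promoter, as for all genes, 26 of their 28 promoters held GGAA and 16 held GGAT. Such matches describe letters only and do not mark binding sites.

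In the controls of both lines, the galectin gene Lgals4, the tetraspanin gene Tspan8 and Plac8 were among the 4 members with the highest TPM, with the cadherin gene Cdh17 in mT69a and the glutathione peroxidase gene Gpx2 in mT6. Lgals4 averaged 766 ± 88.8 TPM (SD, n = 2) in the mT69a control and 427 ± 25.8 TPM in the mT6 control, and Gpx2 averaged 169 ± 35.7 TPM and 448 ± 219 TPM in the same groups. In each library 85.92% to 94.68% of the Gpx2 level was assigned to Gpx2-202, annotated as a processed transcript and not as protein-coding. Between 5 and 8 of the 36 lay at or above 100 TPM in a group, and 9 to 13 lay under 1 TPM. The median member stood at 12, 7.44 and 11.3 TPM in mT69a SPDEF-labelled, knockout and control libraries, and at 16.8, 12.5 and 9.64 TPM in the corresponding mT6 groups.

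The 7 untested members were at or near 0 counts. Reg4 (a secreted lectin-like protein), Capn9 (a calpain protease of the stomach) and Sdr16c5 (a retinol dehydrogenase family member) had no count in any of the 12 libraries. Capn8, Zg16 (a goblet cell lectin) and Tox3 had at most 2 counts in any library, and the immunoglobulin-domain gene Vsig2 at most 6. Pla2g10, a secreted phospholipase, passed the filter only through the mT6 control, where it had 18 and 29 counts. It had 0 and 1 counts in mT6 SPDEF-labelled libraries and 2 and 3 in mT6 knockouts.

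**Figure D1:**
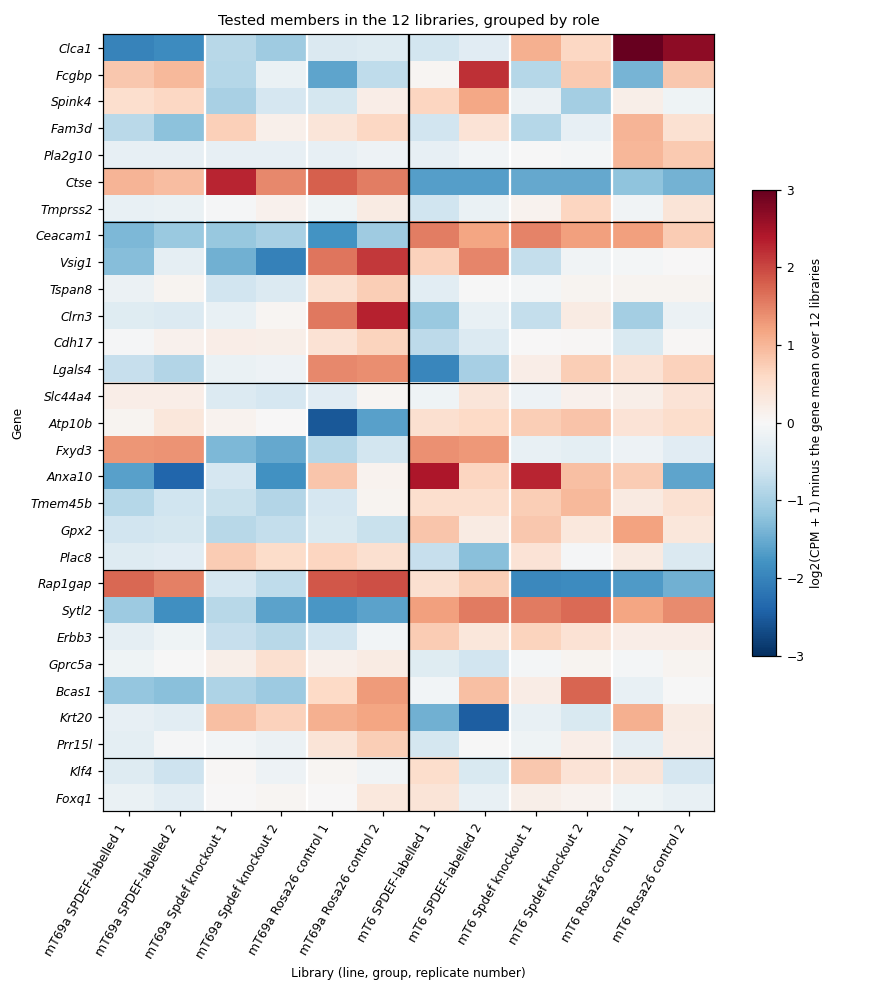
Heat map of the 29 tested members (rows, grouped by role) in the 12 libraries (columns), as log2(CPM + 1) minus the gene's mean over the libraries; red is above that mean and blue below. Fxyd3 is red in all 4 SPDEF-labelled libraries, while Rap1gap, Clca1, Ctse, Ceacam1 and Sytl2 differ between the lines.

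The controls were compared first, to show how the lines start. Classical markers did not run one way between them. With edgeR's quasi-likelihood test (Benjamini-Hochberg adjusted p under 0.05, over 14473 genes), 14 of the 29 tested members differed between the mT69a and mT6 controls, 7 higher and 7 lower in mT69a. Of all genes tested, 28.2% were called, 13.4% higher and 14.7% lower. The median member differed by -0.01 on the log2 scale, against -0.03 for all genes. Of the 6 tested adhesion and surface genes, 5 were higher in mT69a and 1, Ceacam1, was lower. Ctse, among the higher members, passed the count filter only through mT69a libraries, and Pla2g10, among the lower ones, only through the mT6 control, so the filter fixed the direction of both and neither call adds to the count.

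Rap1gap, which encodes the protein that switches off the small GTPase Rap1, had 92.8 and 96.4 CPM (counts scaled to library size with TMM factors) in mT69a controls and 6.93 and 8.36 CPM in mT6 controls. Its log2 difference was 3.62 ± 0.16 (SE, 2 libraries against 2, edgeR adjusted p = 5.75e-07). Every mT69a control library lay above both mT6 ones by a wide margin. Ctse, the gastric aspartic protease cathepsin E, had 10 and 8.15 CPM in mT69a controls against 0.381 and 0.179 CPM in mT6 controls. The summed counts gave a 37.5-fold higher level in mT69a (95% counting interval 20.1 to 79.0), so Ctse was near absent from mT6. Clrn3, a clarin-family membrane gene, was also higher in mT69a, by 3.38 on the log2 scale (SE 0.71, edgeR adjusted p = 0.00637), and Vsig1, a junctional immunoglobulin-domain protein of gastric epithelium, by 1.98 (SE 0.41, 0.00621). The smaller differences in the same direction were those of Lgals4, Tspan8 and the intestinal cadherin gene Cdh17, at 0.85, 0.54 and 0.74 on the log2 scale.

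The members lower in mT69a controls were Clca1, Sytl2, Atp10b, Ceacam1, Gpx2, Fxyd3 and Pla2g10. Clca1, a secreted protease-like protein of goblet cell mucus, had 12.4 and 12.8 CPM in mT69a controls against 158 and 115 CPM in mT6 controls, a log2 difference of -3.43 ± 0.21 (SE, edgeR adjusted p = 2.97e-06). Sytl2, an effector of Rab27 in granule exocytosis, differed by -3.68 (SE 0.37), the lipid flippase gene Atp10b by -2.53 (SE 0.25) and the adhesion gene Ceacam1 by -2.42 (SE 0.26). For these genes the control libraries of the lines did not overlap. Ceacam1 shares sequence with its close paralog Ceacam2, so its count is uncertain. Gpx2 differed by -1.40 and Fxyd3, a regulator of the sodium-potassium pump, by -0.48. Some of these calls rested on single libraries. Gpx2 lost its call without mT69a control 2 (adjusted p = 0.0504), Cdh17 without mT6 control 1 (0.0843) or mT69a control 2, and Tspan8 without mT69a control 2 (0.123) or either mT6 control. Fxyd3 lost its call in 5 of 12 fits without 1 library (up to 0.232, without mT69a control 1) and Lgals4 in 7 (up to 0.172, without mT6 control 1).

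**Figure D2:**
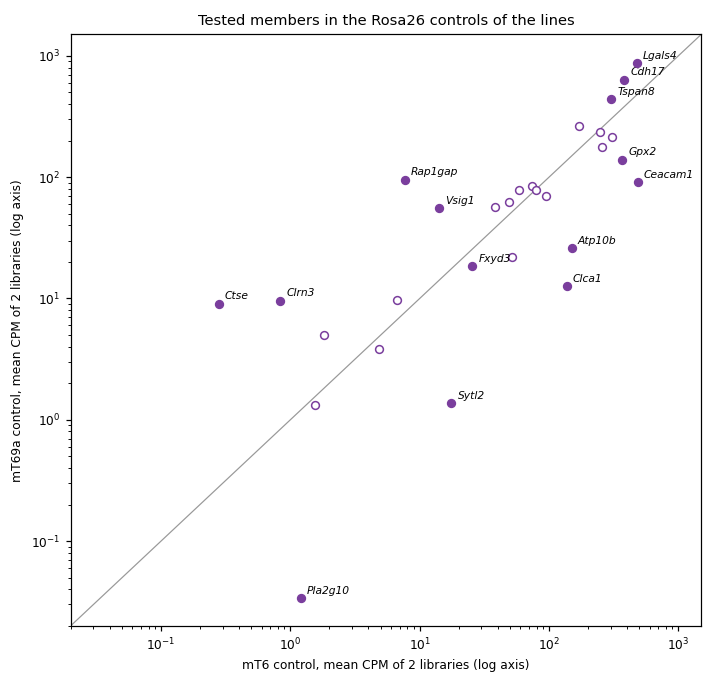
Mean CPM of each tested member in the mT69a control (vertical, log axis) against the mT6 control (horizontal, log axis), 2 libraries each; filled points passed adjusted p 0.05 in edgeR and are named, and the line marks equal levels. Called members lie on both sides of the line, with Ctse, Clrn3 and Rap1gap far above it and Clca1, Sytl2 and Pla2g10 far below.

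SPDEF-labelled libraries were then compared with the Spdef knockouts that carry the empty vector, which asks what the vector did in the knockout background. Classical markers split: Rap1gap and Fxyd3 rose strongly in both lines, Spink4 and Vsig1 rose on average, and Clca1, Lgals4, Krt20, Plac8 and Gprc5a fell. On the average of the lines, 9 of 29 tested members passed in edgeR, 4 higher and 5 lower, where 7.77% of all genes did, 4.46% higher and 3.32% lower. The median member changed by -0.32 on the log2 scale, against -0.02 for all genes. Of the 29, 7 had a positive value in both lines and 14 a negative one, 7 had opposite signs and Pla2g10 was at 0 in mT69a. The lines share no library in this count. Its share of all genes is not given here, so it does not single out the members.

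Rap1gap had 83.5 and 71.9 CPM in mT69a SPDEF-labelled libraries and 17.0 and 14.0 CPM in mT69a knockouts. For mT6 the values were 34.9 and 41.4 CPM in SPDEF-labelled libraries and 5.66 and 5.95 CPM in knockouts. No SPDEF-labelled library overlapped a knockout of its line, and the log2 fold change was 2.52 ± 0.11 on average (SE, 4 libraries against 4, edgeR adjusted p = 1.27e-06), 2.32 ± 0.16 in mT69a and 2.71 ± 0.17 in mT6. Fxyd3 had 77.3 and 78.8 CPM in mT69a SPDEF-labelled libraries against 11.4 and 9.83 CPM in mT69a knockouts. In mT6 it had 79.9 and 76.2 CPM in SPDEF-labelled libraries against 26.2 and 24.6 CPM in knockouts. The SPDEF-labelled libraries of both lines thus met at nearly the same Fxyd3 level, higher in 4 of 4 same-numbered pairs. The average log2 fold change was 2.25 ± 0.10 (SE, edgeR adjusted p = 1.27e-06), with 2.87 ± 0.15 in mT69a and 1.62 ± 0.14 in mT6.

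Fxyd3 was the member whose response came nearest to differing between the lines, by 1.25 on the log2 scale (mT69a minus mT6, SE 0.20). In edgeR that difference did not pass (adjusted p = 0.11), while a fit that blocked on replicate number called it (0.0117). No tested member passed in edgeR for a difference between lines in this comparison, where 0.0138% of all genes passed. An unadjusted edgeR p under 0.05 was found for 4 members, and 1 passed in DESeq2. The shares of all genes for these counts are not given here, so they do not single out the members. With the block, 1 member passed, where 0.38% of all genes did.

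Mucus-associated members moved in opposite directions. Spink4, a goblet cell protease inhibitor, had 2.55 and 2.89 CPM in mT69a SPDEF-labelled libraries against 0.269 and 0.783 CPM in knockouts. The mT6 line had 2.92 and 4.58 CPM in SPDEF-labelled libraries against 1.24 and 0.246 CPM in knockouts. All 4 SPDEF-labelled libraries lay above all 4 knockouts, at low levels, and the average log2 fold change was 2.45 ± 0.52 (SE, edgeR adjusted p = 0.0168); leaving out mT69a knockout 1 or either mT69a SPDEF-labelled library ended that call (adjusted p up to 0.0782). Clca1 instead fell. It had 3.5 and 3.88 CPM in mT69a SPDEF-labelled libraries and 9.09 and 7.65 CPM in mT69a knockouts. For mT6 the values were 11.3 and 13.3 CPM in SPDEF-labelled libraries and 37.0 and 26.6 CPM in knockouts. The groups of each line did not overlap, and Clca1 passed in mT69a (log2 fold change -1.19 ± 0.23, edgeR adjusted p = 0.0151) and in mT6 (-1.36 ± 0.21, 0.00587). The mT69a call was lost without mT69a knockout 1 or without either mT69a SPDEF-labelled library (adjusted p up to 0.159). Fcgbp, a mucus-layer protein that binds immunoglobulin G, had 85.7 and 95.8 CPM in mT69a SPDEF-labelled libraries against 26.4 and 42.1 CPM in knockouts, and in mT6 it had 50.7 and 224 CPM in SPDEF-labelled libraries against 26.1 and 84.2 CPM in knockouts. It was higher in every same-numbered pair but did not pass in edgeR (average log2 fold change 1.36 ± 0.65, adjusted p = 0.309), and in every group it was also higher in replicate 2 than in replicate 1.

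Among adhesion and surface genes, Vsig1 rose and Lgals4 fell. Vsig1 had 5.34 and 11.7 CPM in mT69a SPDEF-labelled libraries and 4.68 and 2.78 CPM in mT69a knockouts, and in mT6 it had 23.6 and 41.1 CPM in SPDEF-labelled libraries and 8.31 and 13.3 CPM in knockouts. The groups did not overlap in either line, and the average log2 fold change was 1.35 ± 0.31 (SE, edgeR adjusted p = 0.0269). Leaving out mT6 knockout 1, mT6 SPDEF-labelled 2, mT69a knockout 2 or mT69a SPDEF-labelled 2 ended the call (adjusted p up to 0.0951). Lgals4 had 199 and 175 CPM in mT69a SPDEF-labelled libraries against 280 and 291 CPM in knockouts. In mT6 it had 82.9 and 161 CPM in SPDEF-labelled libraries against 368 and 535 CPM in knockouts. All 4 SPDEF-labelled libraries were lower, by 1.25 ± 0.20 (SE) on the log2 scale on average (edgeR adjusted p = 0.00331). Neither Tspan8 nor Clrn3 passed on average. The log2 fold change of Tspan8 was 0.45 ± 0.16 in mT69a (edgeR adjusted p = 0.168, with the replicate number as a block 0.00983).

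Of the remaining called genes, Krt20, a keratin of differentiated intestinal and gastric surface epithelium, had 29.4 and 28.1 CPM in mT69a SPDEF-labelled libraries against 66.2 and 57.1 CPM in knockouts. The mT6 line had 12.4 and 5.52 CPM in SPDEF-labelled libraries against 29.8 and 25.6 CPM in knockouts. Every SPDEF-labelled library was below both knockouts of its line, and the average log2 fold change was -1.36 ± 0.24 (SE, edgeR adjusted p = 0.00662). Plac8, which encodes a small cysteine-rich protein, had 135 and 140 CPM in mT69a SPDEF-labelled libraries against 297 and 258 CPM in mT69a knockouts. For mT6 the values were 109 and 73.6 CPM in SPDEF-labelled libraries against 233 and 173 CPM in knockouts. It showed the same separation (-1.08 ± 0.18, edgeR adjusted p = 0.00444). Gprc5a, an orphan receptor induced by retinoic acid, had 67.5 and 72.8 CPM in mT69a SPDEF-labelled libraries against 83.1 and 104 CPM in mT69a knockouts. In mT6 it had 56.7 and 49.6 CPM in SPDEF-labelled libraries against 70.8 and 78.0 CPM in knockouts. Its change was the smallest of the 9 called ones, -0.45 ± 0.10 (edgeR adjusted p = 0.0199), and leaving out any of 5 single libraries ended the call (adjusted p up to 0.0981): mT69a SPDEF-labelled 1 or 2, mT69a knockout 2, mT6 knockout 2 or mT6 SPDEF-labelled 2.

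Within single lines, 3 of 29 passed in mT69a (4.25% of all genes) and 6 of 29 in mT6 (2.69%). Rap1gap, Fxyd3 and Clca1 passed in both lines, and Lgals4, Krt20 and Plac8 passed in mT6, none of them with a called difference between lines. Krt20 and Plac8 lost their mT6 call in 9 of the 12 fits that each left out 1 library (adjusted p up to 0.194 and 0.256, both without mT6 knockout 1). With the replicate number as a block, 10 of 29 passed in mT69a (10.6% of all genes) and 10 in mT6 (7.29%). On the average of the lines, the block added the protease gene Tmprss2 (log2 fold change -0.51, edgeR adjusted p = 0.00133), Cdh17 (-0.38, 0.00811) and the choline transporter-like gene Slc44a4 (0.41, 0.011) to the called members. Nuclear factors Klf4 and Foxq1 did not pass in either line, and neither did Erbb3, a receptor of the epidermal growth factor family, or Gpx2.

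**Figure D3:**
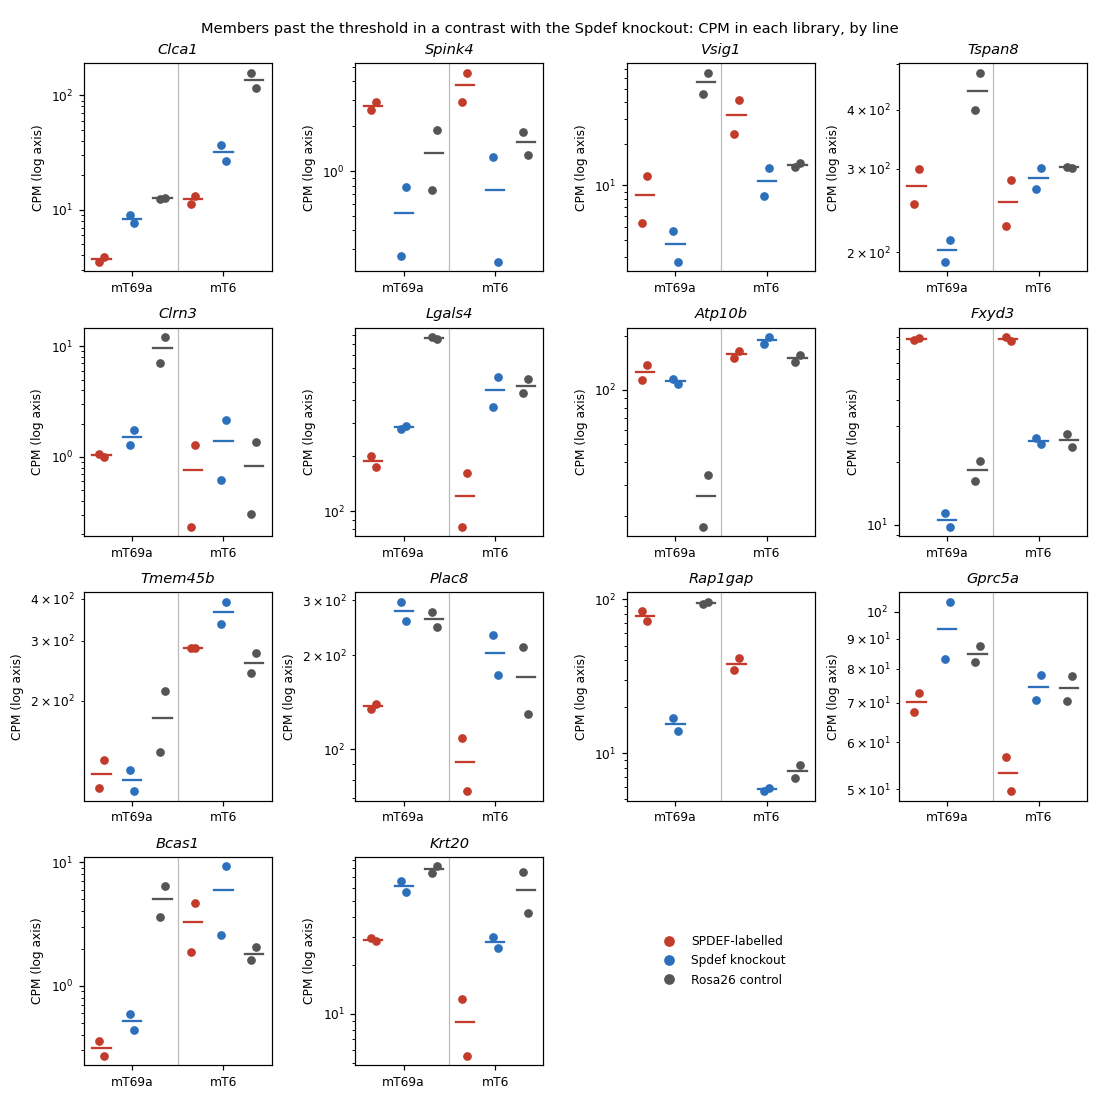
CPM in each library (points, log axis) and group mean (bars) of the 14 members past adjusted p 0.05 in edgeR in a contrast with the Spdef knockout, with mT69a left and mT6 right; SPDEF-labelled libraries are red, Spdef knockouts blue and Rosa26 controls grey. Fxyd3 and Rap1gap stand above the knockouts in both lines in SPDEF-labelled libraries, and Rap1gap, Vsig1, Clrn3, Lgals4 and Bcas1 drop below the control in the mT69a knockout.

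The Spdef knockout was compared with the Rosa26 control to ask which markers differed in the clones labelled as Spdef knockouts. In mT69a, Rap1gap, Vsig1, Tspan8, Lgals4, Clrn3, Fxyd3 and Bcas1 fell in the knockout and Atp10b rose. In mT6, Clca1 fell. On the average of the lines 6 of 29 tested members passed in edgeR, 1 higher and 5 lower, where 5.6% of all genes did, 3.3% higher and 2.3% lower. The median member changed by -0.31 on the log2 scale, against -0.0035 for all genes. With the replicate block the count was 10 of 29 (15.0% of all genes), with Fxyd3 (-0.40, adjusted p = 0.0504 without and 0.0137 with the block), Krt20, Slc44a4 and Prr15l added. Some chromosomes were shifted as a whole between the Spdef knockout and the Rosa26 control. In mT6 the median log2 fold change was -0.44 on chromosome 17, -0.37 on 14, -0.29 on 19 and -0.28 on 1. In mT69a it was -0.49 on chromosome 18 and -0.34 on 12. Between the controls (mT69a minus mT6), the medians were -0.425 on chromosome 17, -0.32 on 14, -0.117 on 19 and -0.348 on 1. They were 0.553 on chromosome 18 and -0.0135 on 12. Whether the knockout or the control clone departed on each chromosome was not tested. Tested members on these chromosomes were Slc44a4 (17), Fam3d (14), Ctse (1) and Gpx2 (12), none called in knockout against control without the block. Slc44a4 differed by -0.29 between mT6 knockout and control, less than the median of its chromosome. The part of these shifts in its value was not tested.

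By line, 8 of 29 passed in mT69a (8.6% of all genes) and 1 in mT6 (3.23%), with no member called in both. Of the 29, 6 had a positive value in both lines, 12 a negative one and 11 opposite signs. Pla2g10 was among the 12, although the filter fixed its direction against the mT6 control and it had 0 against 1 count in mT69a. The share of all genes for these signs is not given here, so they do not single out the members. With the replicate block, 5 passed in mT6 (12.5% of all genes). These were Clca1, Krt20, Bcas1 and Anxa10, and Pla2g10, whose direction against the mT6 control the filter fixed. The difference between the lines itself passed for 9 of 29 members, where 6.62% of all genes did. These were Lgals4, Vsig1, Tspan8, Fxyd3, Rap1gap, Atp10b, Clca1, Bcas1 and Tmem45b. The mT69a control held 2 and 4 Spdef counts, near the floor, and mT69a had the larger number of called markers. The immune sum given above, nearly all of it Cd68, was higher in mT69a knockouts than in mT69a controls. What part either had in these calls was not tested.

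In mT69a, 4 of the 6 tested adhesion and surface genes fell, where 3.71% of all genes did. Vsig1 had 4.68 and 2.78 CPM in mT69a knockouts and 45.6 and 65.5 CPM in mT69a controls, a log2 fold change of -3.86 ± 0.46 (SE, edgeR adjusted p = 0.000772). The mT6 line had 8.31 and 13.3 CPM in knockouts and 13.6 and 14.5 CPM in controls (-0.37 ± 0.41). The mT69a groups lay far apart and the mT6 groups close together, and the lines differed by -3.49 ± 0.60 (mT69a minus mT6, edgeR adjusted p = 0.00874). Tspan8 had 191 and 213 CPM in mT69a knockouts against 399 and 479 CPM in controls, and in mT6 272 and 302 CPM in knockouts against 303 and 302 CPM in controls. It fell by 1.12 ± 0.16 on the log2 scale in mT69a (edgeR adjusted p = 0.00151), and the lines differed by -1.04 ± 0.22 (0.0185), a call lost in 5 of 12 fits that left out 1 library (up to 0.0832, without mT69a knockout 1). Lgals4 had 280 and 291 CPM in mT69a knockouts against 877 and 854 CPM in controls, and in mT6 368 and 535 CPM in knockouts against 436 and 522 CPM in controls. The mT69a groups did not overlap and the mT6 groups did; Lgals4 fell by 1.60 ± 0.28 in mT69a (edgeR adjusted p = 0.00576, and 0.0584 without mT69a knockout 1). The lines differed for Lgals4 by -1.52 ± 0.39 (0.0445), a call lost in 9 of 12 such fits (up to 0.138, without mT6 control 1). Clrn3 had 1.29 and 1.74 CPM in mT69a knockouts against 7.0 and 12.1 CPM in controls, and in mT6 0.619 and 2.16 CPM in knockouts against 0.305 and 1.36 CPM in controls. It passed in mT69a (-2.66 ± 0.70, edgeR adjusted p = 0.0428), but leaving out any 1 of the 6 mT69a libraries ended that call (adjusted p up to 0.275).

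The averaged calls of these genes leaned on single libraries. Averaged over the lines, Lgals4 fell by 0.84 ± 0.19 on the log2 scale (edgeR adjusted p = 0.032), with 1 of 4 same-numbered pairs higher and the call lost in 8 of 12 fits without 1 library, up to 0.119 without mT69a knockout 1. Averaged Tspan8 (-0.60 ± 0.11, 0.0104) lost its call without mT69a knockout 1 alone (0.0613).

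Of the 7 tested signalling, trafficking and cytoskeleton genes, 2 fell in mT69a (Rap1gap and Bcas1). Of the 7 tested transport, membrane and lipid genes, 1 rose (Atp10b) and 1 fell (Fxyd3). In mT69a 8.6% of all genes passed, with 3.71% lower, and counts this small do not single out either group. None of these 2 groups passed in mT6 without the block. Rap1gap had 17.0 and 14.0 CPM in mT69a knockouts against 92.8 and 96.4 CPM in controls, and in mT6 5.66 and 5.95 CPM in knockouts against 6.93 and 8.36 CPM in controls. All knockouts were below their controls, by 2.60 ± 0.16 on the log2 scale in mT69a (edgeR adjusted p = 9.08e-06) and by 0.40 in mT6, where it did not pass; the lines differed by -2.20 ± 0.23 (0.00037). Atp10b rose in mT69a, with 115 and 108 CPM in knockouts against 17.6 and 34.1 CPM in controls (2.11 ± 0.25, edgeR adjusted p = 0.000561). For mT6 the values were 180 and 196 CPM in knockouts against 143 and 156 CPM in controls. The mT69a knockouts thus stood nearer to the mT6 level than their own controls did, and the lines differed by 1.78 ± 0.34 (0.0124). Fxyd3 had 11.4 and 9.83 CPM in mT69a knockouts against 16.3 and 20.4 CPM in controls, and in mT6 26.2 and 24.6 CPM in knockouts against 27.3 and 23.8 CPM in controls. It fell in mT69a by 0.78 ± 0.15 (edgeR adjusted p = 0.00813, and up to 0.0818 without mT69a control 2 or mT69a knockout 2). The difference between lines for Fxyd3 (-0.77, 0.049) was lost in 11 of 12 such fits (up to 0.19, without mT69a knockout 2).

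Bcas1, a gene amplified in some breast cancers, and Tmem45b, a transmembrane gene, had values of opposite sign in the lines. Bcas1 had 0.591 and 0.435 CPM in mT69a knockouts against 3.63 and 6.4 CPM in controls, and in mT6 2.57 and 9.3 CPM in knockouts against 1.6 and 2.04 CPM in controls. It fell in mT69a (-3.23 ± 0.69, edgeR adjusted p = 0.0165), did not pass in mT6 (1.71 ± 0.59, 0.159, with the block 0.0167), and differed between lines by -4.95 ± 0.91 (0.00993). In mT69a it lost its call without mT69a knockout 1, mT69a knockout 2 or mT69a control 2 (adjusted p up to 0.117). Tmem45b had 125 and 108 CPM in mT69a knockouts against 141 and 213 CPM in controls, and in mT6 337 and 392 CPM in knockouts against 241 and 276 CPM in controls. Neither line passed alone, the groups did not overlap in either line, and the difference of -1.10 ± 0.27 (edgeR adjusted p = 0.0387) was lost in 9 of 12 fits without 1 library (up to 0.144, without mT69a knockout 2). Anxa10, an annexin of gastric epithelium, had 4.3 and 1.13 CPM in mT69a knockouts against 12.3 and 7.07 CPM in mT69a controls, and 35.4 and 13.0 CPM in mT6 knockouts against 11.8 and 1.5 CPM in mT6 controls. It lay 3.17-fold lower in mT69a knockouts and 4.38-fold higher in mT6 knockouts by summed counts. It passed in neither line in edgeR without the block (adjusted p = 0.471 in mT69a and 0.408 in mT6) and in both with it (0.0297 and 0.0149); in every group it was lower in replicate 2 than in replicate 1.

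Clca1 was the 1 member that passed in mT6. It had 37.0 and 26.6 CPM in mT6 knockouts against 158 and 115 CPM in mT6 controls, and in mT69a 9.09 and 7.65 CPM in knockouts against 12.4 and 12.8 CPM in controls. Knockouts were lower in 4 of 4 same-numbered pairs, by 2.11 ± 0.20 on the log2 scale in mT6 (edgeR adjusted p = 0.0006) and by 0.58 ± 0.21 in mT69a, which did not pass (0.13, with the block 0.0393). The lines differed by 1.52 ± 0.28 (0.00993, and 0.0602 without mT69a knockout 1). Of the other secreted members, Spink4 was lower in all 4 pairs at low counts and did not pass. Krt20 was lower in 4 of 4 pairs (-0.71 ± 0.22, edgeR adjusted p = 0.104, with the block 0.0371).

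**Figure D4:**
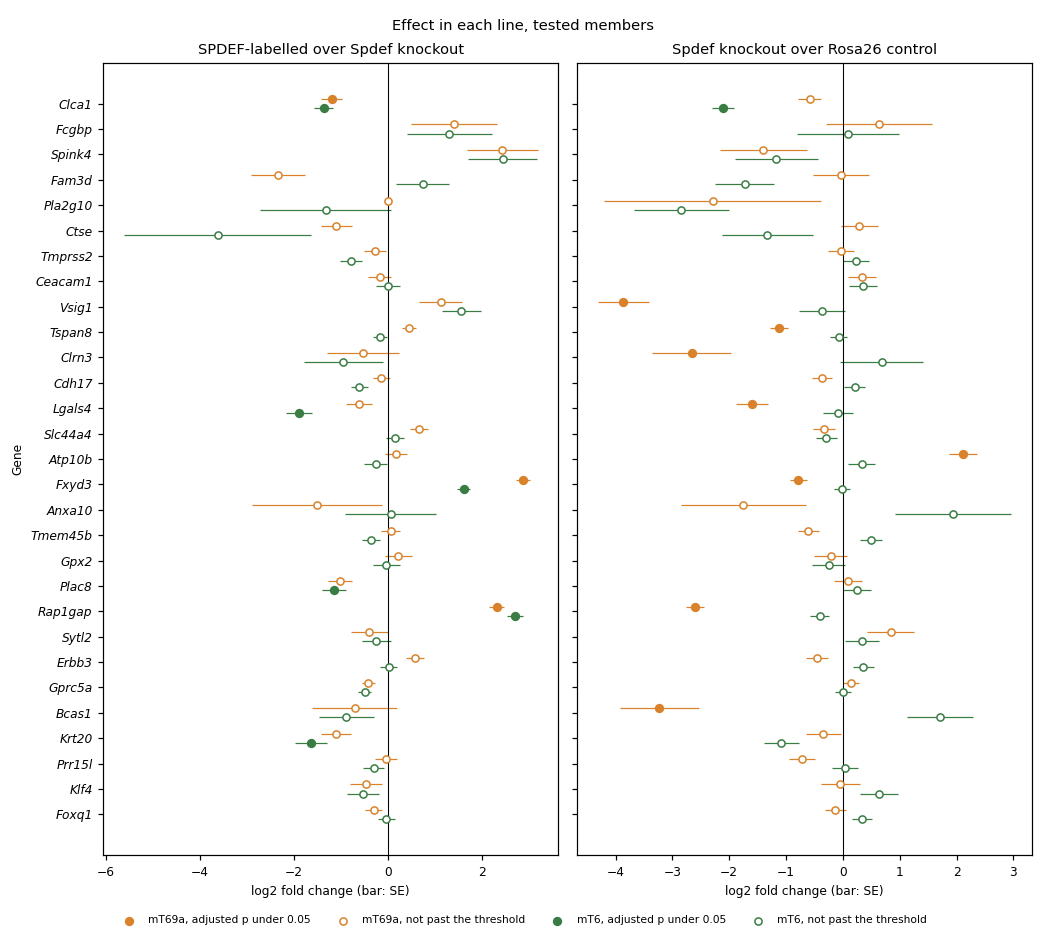
Log2 fold change (points) with its SE (bars) of the 29 tested members in mT69a (orange) and mT6 (green), for SPDEF-labelled over Spdef knockout (left) and Spdef knockout over Rosa26 control (right); filled points passed adjusted p 0.05 in edgeR. The long bars of Pla2g10 and of Ctse in mT6 rest on groups at or near 0 counts, where a fitted fold change depends on the prior count. On the left, Rap1gap and Fxyd3, which rose, and Clca1, which fell, are filled in both lines, and on the right no member is.

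The last comparison set SPDEF-labelled libraries against the Rosa26 controls, to show where the markers ended relative to the start. It shares its libraries with both earlier comparisons. Fxyd3 stood above the control in both lines, Clca1, Lgals4 and Krt20 below it in both, and Rap1gap stood above it in mT6 and not in mT69a. On the average of the lines, 12 of 29 tested members passed in edgeR, 3 higher and 9 lower, where 14.4% of all genes did, 8.03% higher and 6.41% lower. With the replicate block, 18 passed (25.4% of all genes), with Prr15l, Clrn3, Tmprss2, Bcas1, Fcgbp and Vsig1 added. The median member changed by -0.42 on the log2 scale, against -0.02 for all genes.

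Fxyd3 was higher by 1.85 ± 0.10 (SE, 4 libraries against 4, edgeR adjusted p = 3.52e-06). Its values were 77.3 and 78.8 CPM in mT69a SPDEF-labelled libraries against 16.3 and 20.4 CPM in mT69a controls, and 79.9 and 76.2 CPM in mT6 SPDEF-labelled libraries against 27.3 and 23.8 CPM in mT6 controls. Clca1 was lower by 2.62 ± 0.15 (5.21e-06), Lgals4 by 2.09 ± 0.20 (0.000105) and Krt20 by 2.07 ± 0.24 (0.000379). The mT69a call of Krt20 (adjusted p = 0.0163) was lost without either mT69a SPDEF-labelled library or either mT69a control (up to 0.115, without mT69a SPDEF-labelled 2). Each of the 3 was lower in every same-numbered pair of both lines, and each had also been lower in SPDEF-labelled libraries than in knockouts. In mT6, Clca1 had 11.3 and 13.3 CPM in SPDEF-labelled libraries, 37.0 and 26.6 CPM in knockouts and 158 and 115 CPM in controls, so the group with the SPDEF vector lay farther from the control than the knockout did.

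Rap1gap showed the lines apart. In mT69a it had 83.5 and 71.9 CPM in SPDEF-labelled libraries against 92.8 and 96.4 CPM in controls, and in mT6 34.9 and 41.4 CPM in SPDEF-labelled libraries against 6.93 and 8.36 CPM in controls. The difference between the lines was -2.59 ± 0.21 (mT69a minus mT6, edgeR adjusted p = 0.0001), with an mT6 change of 2.31 ± 0.16 (4.06e-05). Vsig1 in mT69a had 5.34 and 11.7 CPM in SPDEF-labelled libraries against 45.6 and 65.5 CPM in controls (-2.73 ± 0.43, edgeR adjusted p = 0.00282). In mT6 it had 23.6 and 41.1 CPM in SPDEF-labelled libraries against 13.6 and 14.5 CPM in controls, above the control without passing (1.20 ± 0.41, 0.11, with the block 0.0419). The lines differed for Vsig1 by -3.93 ± 0.59 (0.00487), and Atp10b (2.21), Clca1 (1.69) and Bcas1 (-4.77) also differed, 5 of 29 members where 6.04% of all genes did. The difference for Bcas1 (adjusted p = 0.0183) was lost in 6 of 12 fits without 1 library (up to 0.0905, without mT69a SPDEF-labelled 1). Atp10b was close to its mT69a knockout values, with 114 and 137 CPM in mT69a SPDEF-labelled libraries against 17.6 and 34.1 CPM in controls (2.28 ± 0.25, edgeR adjusted p = 0.000264).

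The other average-line calls were lower values of Plac8 (-0.91), Fam3d (-1.68), Tspan8 (-0.45), Gprc5a (-0.38), Cdh17 (-0.45) and Ctse. Fam3d, a secreted cytokine-like gut protein, had 0.949 and 0.451 CPM in mT69a SPDEF-labelled libraries against 3.38 and 4.24 CPM in controls, and 1.29 and 3.52 CPM in mT6 SPDEF-labelled libraries against 5.94 and 3.71 CPM in mT6 controls. In mT6 the median gene of its chromosome 14 differed by -0.36 and that of chromosome 1, which holds Ctse, by -0.31, and the part of these shifts was not tested. Ctse was at 0 counts in both mT6 SPDEF-labelled libraries against 10 counts in the controls, at least 1.38-fold lower against the floor of 3 counts over the group, so no average fold is given. It passed in neither line (edgeR adjusted p = 0.173 in mT69a and 0.112 in mT6). Leaving out single libraries ended the calls of Ctse (adjusted p up to 0.137, without mT6 SPDEF-labelled 1) and Cdh17 (0.152) in 10 of 12 fits each, of Gprc5a in 6 (0.117), of Tspan8 in 4 (0.098), the highest of these 3 without mT69a SPDEF-labelled 1, and of Fam3d in 2 (0.0714, without mT69a SPDEF-labelled 2). By line, 11 of 29 passed in mT69a (12.4% of all genes) and 5 in mT6 (8.61%), 4 of them in both. With the replicate block 12 passed in mT6 (19.0% of all genes), Pla2g10 among them, whose direction against the mT6 control the filter fixed. Without Pla2g10 that count was 11 of 28.

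Neighbouring lists of the same biology are given by count. Of 11 further genes of the published classical lists, Agr2 and the trefoil factors among them, 7 were tested by the same edgeR threshold, on the average of the lines. In SPDEF-labelled libraries against knockouts, Agr2, a disulfide isomerase of mucus-secreting cells, rose (3.75) and Tff1, Tff2 and Pls1 fell (-2.50, -3.61 and -0.35), with a median of -0.36. In knockouts against controls, Agr2 fell (-3.82) and Muc13 rose (0.91, edgeR adjusted p = 0.0494, and 0.0596 with the replicate block, which ended that call), with a median of -0.54. Of 23 basal-like genes, 14 were tested. In SPDEF-labelled libraries against knockouts, Scel rose (1.04) and Anxa8, Lemd1 and Krt7 fell (-1.68, -2.67 and -0.81), with a median of -0.55; with the replicate block 1 was higher and 7 lower, where 8.35% of all genes were higher and 7.49% lower. In knockouts against controls on the average of the lines, Ly6d, a squamous-type surface gene, rose (1.76) and no other basal-like gene passed, with a median of 0.47. With the block 5 were higher, where 7.96% of all genes were, against 3.3% without it. By line, Lemd1 rose in mT69a (4.14, edgeR adjusted p = 0.0143) and fell in mT6 (-2.40, 0.0285).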

How the data were processed

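Per the submitters' processing notes, the tools were FastQC 0.11.8, STAR 2.5.2b and RSEM 1.3.0, with the build GRCm38.p6; the annotation release is not given in the sources used here. Per the labels, libraries came from a stranded total RNA kit. The authors deposited expected counts and TPM per gene and transcript, and the percent of a gene's TPM held by each transcript as the authors' isoform percentage. That percentage was read only to choose the promoter of a leading transcript and to give the leading transcript of Gpx2. Gene identifiers were matched to GENCODE M21 (53620 of 53715, without regard to version), and Fam3d was found as Oit1 through RefSeq synonyms.

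Expected counts were rounded to whole numbers and filtered with filterByExpr by group, leaving 14473 genes. edgeR 4.0.16 fitted a mean for each of the 6 groups over the 12 libraries (TMM factors 0.8391 to 1.196, robust quasi-likelihood, biological coefficient of variation 19.2%, 6 residual degrees of freedom). Contrasts were read for each line, for their average and for mT69a minus mT6, two-sided, with Benjamini-Hochberg adjustment over all genes and a threshold of 0.05. The SE is the absolute log2 fold change divided by the square root of F. The script was tested on simulated counts. Folds of summed counts use a floor of 3 counts over a group, and their 95% exact intervals cover counting error only.

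Libraries with the same replicate number deviated together: over 15 pairs of groups the correlation of their differences ran from 0.205 to 0.5313. By this check and not by the labels, the number was taken to pair libraries in the same-numbered pairs and in the block. The main fit left the number out, so its calls, and its failures to call, take no account of this pairing. The block with that number was 1 of the alternatives, beside DESeq2 1.42.0, RLE factors, no count filter and leaving out each library. The members, gene lists and tests were chosen with earlier results of these data known. All 36 members are accounted for; values in every library are given for those past the threshold in a contrast with the Spdef knockout. Promoters came from the RefSeq table (GRCm38.p6), which holds 21 of the 36. R 4.3.3 and Python 3.11.15 were used. One allele shared by all groups is not reported here.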

Additional observations from a re-analysis of the deposited data

Results flagged for a closer look

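The effect of the knockout against the control differed between the lines for 9 members in edgeR's test of the difference (mT69a minus mT6, log2). The differences were -1.52 for Lgals4, -3.49 for Vsig1, -1.04 for Tspan8, -0.774 for Fxyd3, -2.20 for Rap1gap, 1.78 for Atp10b, 1.52 for Clca1, -4.95 for Bcas1 and -1.10 for Tmem45b. Vsig1 fell 14.0-fold by summed counts in mT69a knockouts (counting interval 11.6 to 17.0) and lay 1.24-fold lower in mT6 knockouts (1.08 to 1.41). Clca1 had its larger fall in mT6.

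The effect of the SPDEF-labelled libraries against the control differed between the lines for 5 members, by -3.93 for Vsig1, -2.59 for Rap1gap, 2.21 for Atp10b, 1.69 for Clca1 and -4.77 for Bcas1. These libraries share the controls with the comparison above. In SPDEF-labelled libraries Rap1gap lay 1.20-fold below the mT69a control and 4.83-fold above the mT6 control by summed counts.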

How the results depend on the processing

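No member changed direction past the threshold under any alternative, and RLE factors kept every one of 377 member calls on its side of the threshold. DESeq2 made 25 of these calls that edgeR did not and lost 1, the replicate block made 56 and lost none, and no count filter made 71 and lost 2. Members called in knockout against control were 6 on average (DESeq2 8, no filter 11, block 10). They were 1 in mT6 (2, 6 and 5 in that order) and 8 in mT69a (9, 12 and 12). The difference between lines passed for 9 (10, 12 and 13). Without Pla2g10, whose direction against the mT6 control the filter fixed, the block gave 4 of 28 in mT6. In SPDEF-labelled against knockout, with the same order in brackets, they were 9 on average (10, 15 and 12) and 6 in mT6 (10, 11 and 10). In mT69a 3 passed (8, 14 and 10), and 0 for the difference between lines (1, 4 and 1). In SPDEF-labelled against control they were 12 on average (14, 20 and 18) and 5 in mT6 (7, 11 and 12). In mT69a 11 passed (13, 15 and 16), and 5 for the difference (6, 8 and 7). Without Pla2g10 the block gave 11 of 28 in mT6. Over all genes the block also raised the calls, for knockout against control to 15.0% where 5.6% passed without it. The cause was not tested. For DESeq2, no filter and fits without 1 library, the share of all genes called is not given here. Those counts therefore do not single out the members.

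Leaving out 1 library at a time gave 4 to 7 members in knockout against control on average (4 without mT69a knockout 1), 1 to 2 in mT6, 5 to 8 in mT69a and 4 to 8 for the difference. It gave 6 to 10 in SPDEF-labelled against knockout on average (6 without mT69a SPDEF-labelled 2), 4 to 6 in mT6, 2 to 7 in mT69a and 0 to 0 for the difference. Against control it gave 7 to 13 on average (7 without mT69a control 2), 5 to 6 in mT6, 5 to 12 in mT69a (5 without mT69a SPDEF-labelled 1) and 4 to 6 for the difference, and 11 to 16 between the controls. A group left with 1 library is assumed to vary like the others. Members with few counts, such as Spink4, Clrn3 and Bcas1, are measured less firmly than Lgals4 or Cdh17.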

Other observations

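Within groups, some members followed the replicate number. Fcgbp and the transmembrane protease gene Tmprss2 were higher in replicate 2 than in replicate 1 in 6 of 6 groups, and Anxa10 and Klf4, a zinc-finger factor of differentiated gut epithelium, were lower in 6 of 6. These are 6.9% of the 29 tested members in each direction, against 12.5% and 14.3% of all genes. Anxa10 differed most, by -0.80 to -2.98 on the log2 scale, and Fcgbp by 0.16 to 2.28.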
